A study of Mus musculus with 6 samples.

Results

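Replacement histone variants are histones that can be built into chromatin outside DNA replication and that take the place of the canonical H2A and H3 proteins at chosen sites. Their genes differ from most replication-dependent histone genes in that their messages can carry a poly(A) tail. Messages with such a tail are captured by libraries made from polyadenylated RNA. H2A.Z marks promoters and enhancers and is exchanged by dedicated remodelling complexes, H2AX is phosphorylated beside DNA breaks, the macroH2A proteins carry a large extra domain and are known from repressed chromatin, and the H3.3 histone collects at transcribed genes, telomeres and pericentromeric repeats. The 8 genes described here are H2afv and H2afz, which encode the paired H2A.Z proteins, H2afx (H2AX), H2afy and H2afy2 (the macroH2A proteins), H2afj (a further H2A variant), and H3f3a and H3f3b (the H3.3 histone). They were taken by symbol from the 24421 rows of the authors' deposited tables, and all 8 were found. The set was selected on the fold change of H2afv in these tables, which was lower in the mutant, so the value of H2afv is given as a description and its call supports nothing. The other 7 were taken as relatives of H2afv by kind of gene.

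The tissue was mesenchyme of the anterior palate from mouse embryos of E12.5, after the palatal epithelium had been taken off with Dispase II. Embryos were on a C57BL/6 background and were either Wildtype or Wnt1Cre;Meis2f/f, in which a Cre recombinase under control of Wnt1 sequences, active in the neural crest, acts on a floxed allele of the homeobox gene Meis2. There were 3 libraries of each genotype, labelled biological replicates. The Wildtype embryos are not described as carrying Cre, no library carries Cre alone, and the sources used here do not say which Wnt1Cre line was used. The authors' deposited tables hold no values per library, only a DESeq2 comparison that used all 6 libraries and another that used 4 of them, 2 of each genotype. Each gene has a base mean, which is the mean normalised read count over the libraries, and a log2 fold change with its standard error (SE). Fold changes were shrunk toward 0 by the fit (moderated) and are given as mutant over Wildtype. That sign was read from the lower level of Meis2, whose log2 fold change was -0.28 (SE 0.092 and adjusted p 0.0743) with 6 libraries and -0.33 (adjusted p 0.0213) with 4 per the authors' deposited tables. A gene whose base mean reaches 10 is taken as measured, which holds for 14580, and a gene is called when its adjusted p is under 0.05.

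Library depth differed by 1.86 times between the deepest and the shallowest library, as size factors read from genes with a single read ran from 0.775 to 1.44. The 8 markers of palatal mesenchyme had base means of 103 to 16535 per the authors' deposited table. The highest were Pdgfra at 16535 and Prrx1 at 10660. Epithelial markers were present, the 8 markers having base means of 45.0 to 242.0, a range that also holds the lowest mesenchyme marker. None of the 8 epithelial markers was called (DESeq2 Wald test), and 0 had an unadjusted p below 0.05, per the authors' deposited table.

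The H2A.Z pair shows first how far these messages can be told apart. The proteins differ at few residues, but the genes have diverged. The first 90 coding bases are shown for both, since reads of H2afv can be credited to H2afz only where the sequences are the same. Capitals mark the bases at which the pair differs.
H2afv: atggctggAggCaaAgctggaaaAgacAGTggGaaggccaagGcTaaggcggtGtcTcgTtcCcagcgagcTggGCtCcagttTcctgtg
H2afz: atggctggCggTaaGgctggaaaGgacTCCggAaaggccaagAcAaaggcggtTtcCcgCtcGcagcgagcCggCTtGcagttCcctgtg

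These 90 bases differ at 19 positions. Over the whole coding sequence of 387 bases in each gene, 81 bases differ, an identity of 79.1% (GENCODE M21 transcripts, aligned without gaps). The longest run that the H2A.Z coding sequences share is 14 bases. None of the 1631 windows of 50 bases in the H2afv transcripts occurs in a transcript of any other gene of the annotation, on either strand. For H2afz 35.4% of the 50-base windows occur in transcripts of 6 other genes, 1 of them measured. The sources used here do not state read length, so these shares describe the annotation and not the libraries.

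The H3.3 pair is the same case. H3f3a and H3f3b are known to encode the same protein, and their coding sequences of 411 bases differ at 95 positions, an identity of 76.9%. The first 90 coding bases again show the differences in capitals, 20 in number.
H3f3a: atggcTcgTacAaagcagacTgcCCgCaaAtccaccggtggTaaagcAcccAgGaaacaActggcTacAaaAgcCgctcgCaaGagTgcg
H3f3b: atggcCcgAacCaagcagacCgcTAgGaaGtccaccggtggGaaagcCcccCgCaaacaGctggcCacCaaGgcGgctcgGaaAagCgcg

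Of the 50-base windows of H3f3a, 27.1% occur in transcripts of 193 other genes, 111 of them measured. The 193 include its copies H3f3c and H3f3a-ps2, whether measured or not. For H3f3b the share was 6.86%, with 3 other genes, none of them measured. The shares were 9.66% for H2afx, 15.4% for H2afy2 and 5.94% for H2afy, and for H2afj 128 of 1828 windows were shared. H2afz and H3f3a thus had the highest shares of the 8, and their values are uncertain where reads could match more than 1 gene. Windows were matched on either strand, so the shares include opposite-strand genes that overlap a member, and not copies alone. With windows of 100 bases the H3f3a share was 20.8%, with 15 other genes, 1 of them measured. Genes on the opposite strand overlap H2afx, H2afy, H2afy2, H2afj and H3f3a, and the sources used here do not state if counting used strand. The protein-coding gene Aifm2 overlaps H2afy2, so reads of that overlap cannot be assigned.

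All 8 members were measured. Levels are compared per kilobase of annotated exon (base mean per kb, 6 libraries), with no spread over libraries since none can be had. H3f3b was the highest at 3698 per kb, from a base mean of 11006 per the authors' deposited table. H2afz followed at 1627 per kb and H2afy2 at 1280 per kb. H3f3a at 761 and H2afv at 717 per kb were close to each other, as were H2afy at 406 and H2afx at 403 per kb. H2afj was the lowest at 66.2 per kb. Annotated exon joins the exons of all transcripts of a gene, 6809 bases for H2afy and 2175 for H2afy2. The base means of H2afy and H2afy2 were 2762 and 2785 per the authors' deposited table. The order per kb thus depends on which transcripts are annotated. Of the H2A.Z pair, the base mean of H2afz was 2.47 times that of H2afv per the authors' deposited table, and 2.57 times with 4 libraries.

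H2afv, which encodes the H2A.Z.2 protein, had the lowest fold change of the set. Its base mean was 1170 and its log2 fold change -0.91 (SE 0.105, 95% interval -1.12 to -0.71), or 0.532 of the Wildtype level, with an adjusted p of 3.60e-15 per the authors' deposited table. With 4 libraries the base mean was 1278 and the log2 fold change -0.94 (SE 0.096, 95% interval -1.13 to -0.75), with an adjusted p of 3.08e-19 per the authors' deposited table. The value is therefore about as low when 1 library of each genotype is left out. Among the 173 genes called lower with 6 libraries H2afv had the 11th lowest fold change, and among the 144 called lower with 4 libraries the 4th lowest.

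**Figure D1:**
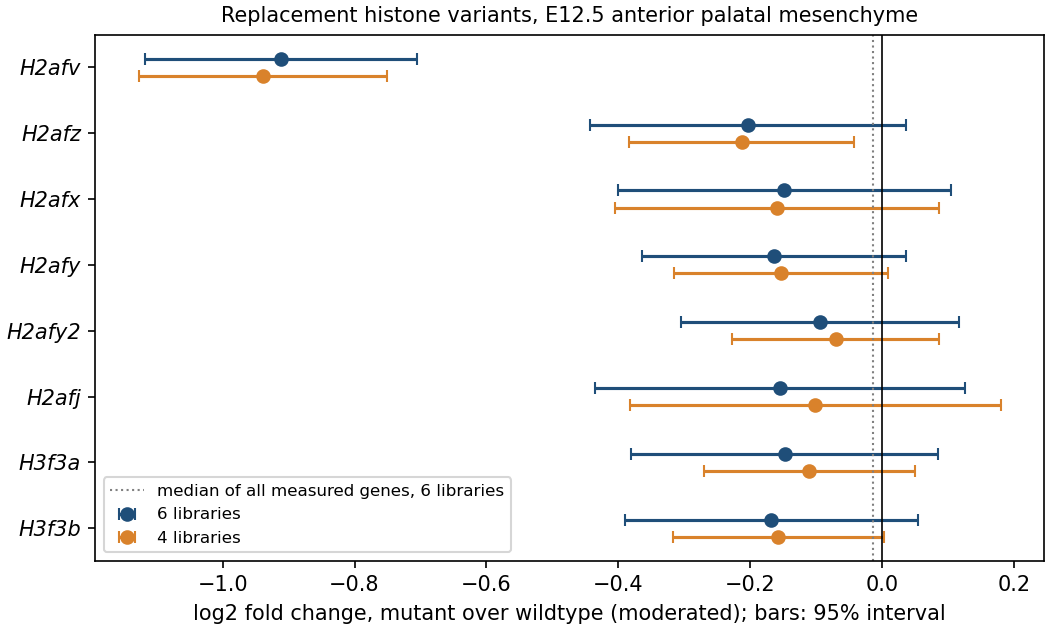
Moderated log2 fold change (x axis, mutant over Wildtype) of the 8 genes (y axis) in the comparisons of 6 and of 4 libraries, which share libraries. Points are the deposited values and bars their 95% intervals. H2afv lies at -0.91 and -0.94, and the other 7 genes between -0.21 and -0.07.

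H2afz, the paralog of H2afv, did not pass the test. Its log2 fold change was -0.20 (SE 0.122, 95% interval -0.44 to 0.04 and adjusted p 0.620) from a base mean of 2890 per the authors' deposited table. With 4 libraries it was -0.21 (SE 0.087, 95% interval -0.38 to -0.04), with an unadjusted p of 0.0144 and an adjusted p of 0.263 per the authors' deposited table. H2afv lay 0.71 below H2afz on the log2 scale (difference -0.71, and -0.73 with 4 libraries), a difference that was not tested because H2afv chose the set.

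The remaining H2A variants were not called. H2afx, whose product is the substrate of the DNA damage kinases, had a base mean of 558 and a log2 fold change of -0.15 (SE 0.129, 95% interval -0.40 to 0.10 and adjusted p 0.793) per the authors' deposited table. The macroH2A gene H2afy had a log2 fold change of -0.16 (95% interval -0.36 to 0.04 and adjusted p 0.638), and its relative H2afy2 -0.09 (95% interval -0.30 to 0.12 and adjusted p 0.869), per the authors' deposited table. H2afj, the weakest of the set with a base mean of 121, had a log2 fold change of -0.15 (95% interval -0.44 to 0.13 and adjusted p 0.812) per the authors' deposited table. At this depth its SE was 0.143, close to the highest SE of any gene, 0.150, so its fold change is strongly moderated.

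The genes of the H3.3 histone, whose chaperones place it at active genes and at repeats, had nearly the same values as each other. H3f3a had a log2 fold change of -0.15 (SE 0.119, 95% interval -0.38 to 0.09 and adjusted p 0.772) and H3f3b of -0.17 (SE 0.113, 95% interval -0.39 to 0.05 and adjusted p 0.694) per the authors' deposited table. With 4 libraries these values were -0.11 (adjusted p 0.876) and -0.16 (adjusted p 0.552) per the authors' deposited table.

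Over the whole set 1 of 8 members was called, H2afv, and that call fixed the choice of the set, so nothing is read from it beside the 2.90% of all tested genes that were called in either direction, 1.16% lower and 1.75% higher. With 4 libraries the call was again that of H2afv alone, beside 2.3% of all genes. Of the 7 others, 0 were called with 6 or with 4 libraries (DESeq2 Wald test). At an unadjusted p below 0.05 there were 0 of these 7 with 6 libraries, beside 7.68% of all genes, and 1 with 4, H2afz, beside 6.72%. All 7 lay below 0, between -0.20 and -0.09 with a median of -0.15, per the authors' deposited table. Among all measured genes 54.0% lay below 0 and the median was -0.01. With 4 libraries all 7 were again below 0, with a median of -0.15, beside 50.8% of all measured genes, but these libraries are part of the 6. In bulk tissue, fewer cells of a type and less RNA per cell cannot be told apart.

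The locus of H2afv bears on how its value can be read. H2afv lies on chromosome 11 (6427229 to 6444443, minus strand, GRCm38, GENCODE M21, protein-coding) and is named H2az2 in RefSeq. RefSeq's gene table for GRCm38.p6 lists Wnt1-cre transgenes among the synonyms of 2 genes, Tg(Wnt1-cre)11Rth under H2az2 and Tg(Wnt1-cre)2Sor under E2f1. As background, such an entry records a transgene that is inserted at that gene. E2f1, a transcription factor of the cell cycle, had a log2 fold change of -0.08 (SE 0.118 and adjusted p 0.910) and -0.03 with 4 libraries (adjusted p 0.9997) per the authors' deposited tables. Wnt1 itself, whose control sequences drive Cre, was listed with 1 read over the 6 libraries. Since every mutant library carries Wnt1Cre and no Wildtype library is described as carrying it, loss of Meis2 and the transgene cannot be told apart for H2afv.

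The genes around H2afv were examined for the same reason. Of the 10 measured genes on each side, 0 of 20 were called with 6 libraries (DESeq2 Wald test), 1 had an unadjusted p below 0.05, and log2 fold changes ran from -0.34 to 0.17 with a median of -0.06, per the authors' deposited table. The lowest was that of the nearest gene on the lower-coordinate side, Ppia, which encodes cyclophilin A (chromosome 11, 6415443 to 6419817), with a transcription start 29.0 kb from that of H2afv. Ppia had a log2 fold change of -0.34 (SE 0.116, unadjusted p 0.00319 and adjusted p 0.0888) with 6 libraries, and with 4 it was called at -0.36 (adjusted p 2.78e-04), per the authors' deposited tables. Purb, a single-strand nucleic acid binding protein gene whose start lies 31.5 kb away on the other side, had a log2 fold change of -0.13 (adjusted p 0.716) and -0.12 with 4 libraries (adjusted p 0.747) per the authors' deposited tables. Ppia was thus the only neighbour among the 20 that was called in either comparison. With 20 genes a side and 6 libraries, 0 of 40 were called lower and 1 higher (2.5%, beside 2.90% of all genes). With 4 libraries 2 were called lower and 1 higher (7.5%, beside 2.3%). Aebp1, 582 kb away, was at -0.40 (adjusted p 0.0712) with 6 libraries and called at -0.47 (adjusted p 0.0235) with 4 (DESeq2 Wald test, as deposited by the authors). Vwc2, 4670 kb away, was called higher with 6 and with 4 libraries, at 1.12 and 0.94.

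**Figure D2:**
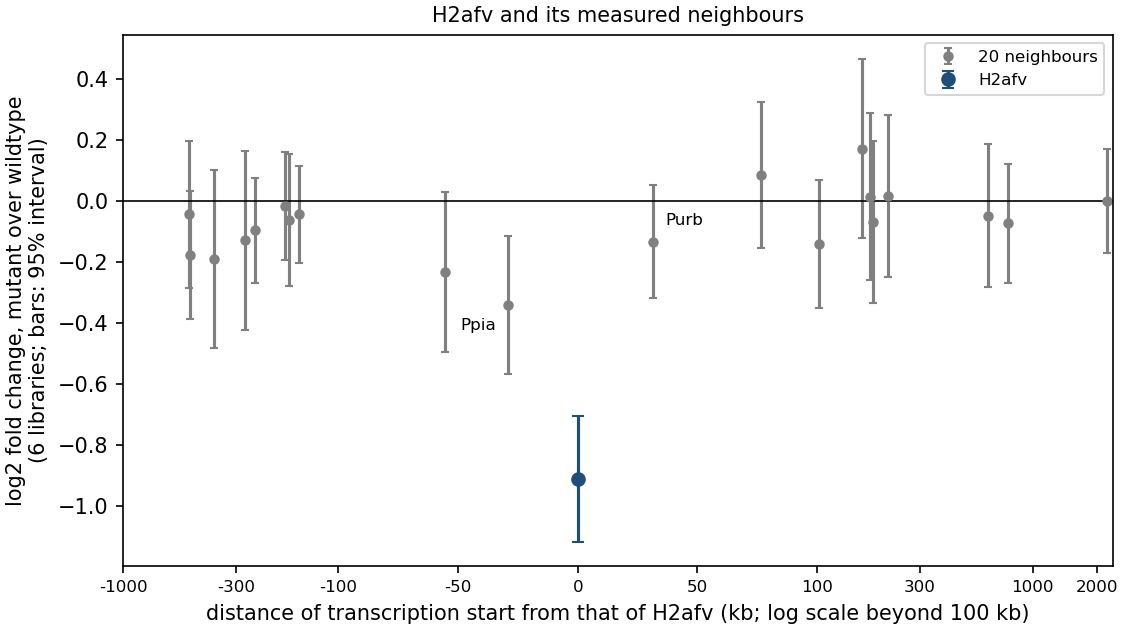
Moderated log2 fold change (y axis, 6 libraries, bars 95% intervals) of H2afv and of the 10 measured genes on each side, by distance between transcription starts (x axis, kb, log scale beyond 100 kb). H2afv lies at -0.91, and the lowest of the 20 neighbours is Ppia at -0.34.

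Around all 8 members, 4 of 160 such neighbours were called with 6 libraries, 2 lower and 2 higher, or 2.5%, beside 2.90% of all genes. Emp1 (log2 fold change -0.40) and Grin2b (-0.53), whose starts lie 1446 and 635 kb from that of H2afj, were lower, and Ddit4l near H2afz (0.46) and Tgfbi near H2afy (0.44) were higher per the authors' deposited table. With 4 libraries Emp1 (-0.36, adjusted p 0.00510) and Tgfbi (0.49, adjusted p 5.17e-07) were called again, while Grin2b (-0.36, adjusted p 0.0531) and Ddit4l (0.42, adjusted p 0.0742) lost their calls, per the authors' deposited table. Rps25 near H2afx was called lower with 4 libraries (-0.27, adjusted p 0.0270) and not with 6 (-0.23, adjusted p 0.442), per the authors' deposited tables. None of these 5 genes is a neighbour of H2afv.

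The bases before the transcription start of H2afv are shown because this is the member whose transcripts were lower. They are from RefSeq's GRCm38.p6 (minus strand, chr11:6444444-6444693, 250 bases) with the motif CCAAT, or ATTGG where it lies on the other strand, in capitals. CCAAT boxes are a common promoter element that is bound by the factor NF-Y.
H2afv: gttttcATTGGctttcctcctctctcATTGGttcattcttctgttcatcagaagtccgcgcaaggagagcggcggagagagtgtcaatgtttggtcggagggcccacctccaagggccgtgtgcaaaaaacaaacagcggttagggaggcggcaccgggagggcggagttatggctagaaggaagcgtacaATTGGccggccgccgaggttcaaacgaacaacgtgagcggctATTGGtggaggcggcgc

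In the RefSeq promoter window of 300 bases (250 before the start and 50 after), H2afv held 4 matches of CCAAT. H2afz held 3 matches, H2afj 3, H3f3b 4, and H2afy2 and H3f3a 1 each, while H2afy held 0. Among all 32851 promoter windows 37.4% held at least 1 match and 3.37% at least 3. The core motif of MEIS proteins, TGACAG on either strand, had 0 matches in the H2afv window and 1 in that of H2afj, and 19.2% of all windows held it. A match or its absence in this window is a description of the letters alone. The 7 windows leave out H2afx.

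Levels in the libraries that the second table leaves out could be recovered from the deposited base means. Genes with a single read fix the size factor of each library in both tables, and the left-out libraries are 1 Wildtype and 1 mutant. Their mean normalised count was computed from the base means of both tables and set against the mean of the 4 kept libraries. Over 10622 genes whose base mean reached 100 the ratio of left-out to kept libraries had a median of 0.978, and 90% of genes lay between 0.765 and 1.24.

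All 8 members had lower levels in the left-out libraries, but the median ratio of genes whose base mean reached 100 was itself below 1, at 0.978. H2afv, H2afy, H2afy2, H2afj and H3f3b lay inside the range of 0.765 to 1.24 that held 90% of those genes. H2afx, H2afz and H3f3a lay below it. H2afx stood at 335 normalised counts in the left-out libraries and 670 in the kept ones, a ratio of 0.50, and only 0.254% of measured genes had a ratio as low. H2afz had 2292 and 3189 (ratio 0.719), H3f3a 2169 and 2916 (ratio 0.744), and H3f3b 9195 and 11912 (ratio 0.772). H2afj, H2afy2 and H2afy had ratios of 0.784, 0.798 and 0.834. H2afv had 1033 normalised counts in the left-out and 1239 in the kept libraries, a ratio of 0.834. Each left-out mean joins a Wildtype and a mutant library, so it says nothing of genotype. Since both sides hold the genotypes in equal number, libraries of at least 1 genotype differed in these messages, which holds for any gene whose ratio is not 1. For H2afx the left-out libraries were lower by a larger factor than the moderated fold change between genotypes, which was 0.902.

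**Figure D3:**
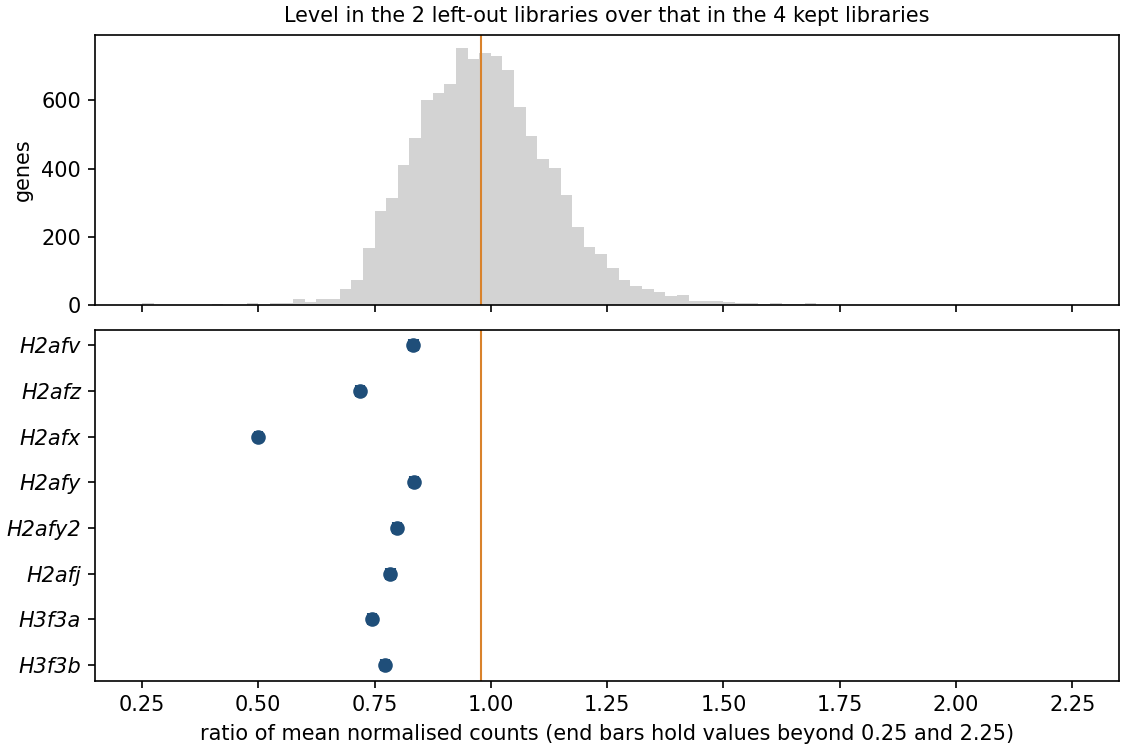
Ratio (x axis) of the mean normalised count in the 2 left-out libraries to that in the 4 kept libraries, for 10622 genes whose base mean reached 100 (upper panel, number of genes) and for the 8 members (lower panel). The line marks the median of all these genes, 0.978, and all 8 members lie to its left, H2afx farthest at 0.50.

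Marker lists moved with the same split of the libraries. Proliferation genes had a median ratio of 0.849 (0.779 to 1.01 over 12 genes), muscle markers of 0.871 over 9 genes, macrophage markers of 1.09 over 10, erythroid markers of 1.11 over 6, endothelial markers of 1.17 over 6, epithelial markers of 1.29 over 8, and neuron markers of 1.66 (1.04 to 10.6) over 8. Markers of palate mesenchyme, the main tissue, had a median ratio of 0.855 (0.733 to 1.13 over 8 genes). By these medians the mesenchyme, muscle and proliferation lists were lower in the left-out libraries, as the histone variants were, and the other 5 lists were higher. The macrophage and erythroid lists were split, with ratios of 0.751 to 1.76 and of 0.676 to 1.62. Mesenchyme, muscle and proliferation lists also held ratios above 1. The highest neuron ratio, 10.6, was that of a gene with a base mean of 15.0. The part of these cells and of dividing cells in the ratios of the members was not tested.

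Other histone genes of the list fixed for comparison also lay below 0. This list joins replacement variants with genes that carry histone cluster names, such as Hist3h2a, so its median is not that of replacement variants alone. Of 10 genes listed 6 were measured, 1 was called lower and 0 higher, and the median log2 fold change was -0.32 (6 of 6 below 0) per the authors' deposited table. At an unadjusted p below 0.05 (DESeq2 Wald test) 4 of 6 were lower with 6 libraries, beside 7.68% of all genes in either direction. With 4 libraries 5 were lower at such a p, beside 6.72%. H1fx, named beyond the rule as the lowest of the list with 6 libraries, was at -0.45 (adjusted p 0.0788), and at -0.32 with 4 (adjusted p 0.362). Cenpa, the H3 variant of centromeres, fell by 0.36 on the log2 scale (SE 0.101 and adjusted p 0.0175) per the authors' deposited table. With 4 libraries Cenpa lost its call, at -0.31 and an adjusted p of 0.0718 per the authors' deposited table. H1f0, the linker histone H1.0 of non-dividing cells, had a base mean of 5714 and a log2 fold change of -0.16 (adjusted p 0.743), and Hist3h2a, an H2A gene outside the main histone clusters, one of -0.30 (adjusted p 0.327), per the authors' deposited table. With 4 libraries Hist3h2a was called, at -0.31 and an adjusted p of 0.0484 per the authors' deposited table. H1f0 and Hist3h2a also had low ratios of left-out to kept libraries, 0.720 and 0.665, while that of Cenpa was 0.881.

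The complexes that exchange H2A.Z were not called. Of 20 measured genes 0 were called with 6 or with 4 libraries (DESeq2 Wald test), 2 had an unadjusted p below 0.05 with 6 libraries, 1 lower and 1 higher, and the median log2 fold change was -0.05, per the authors' deposited table. Over all genes 7.68% had such a p. Trrap, a scaffold of the TIP60 complex, had a log2 fold change of 0.18 (adjusted p 0.460), and Ep400, the ATPase of that complex, of 0.05 (adjusted p 0.936), per the authors' deposited table. Anp32e, the chaperone that takes H2A.Z out of nucleosomes, had a log2 fold change of -0.25 (SE 0.120 and adjusted p 0.435) per the authors' deposited table. Srcap, the ATPase that places H2A.Z, had one of -0.05 (adjusted p 0.942) per the authors' deposited table. It is named beyond the rule, after its value was seen, as the central enzyme of this exchange.

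Chaperones of the H3.3 histone and the partners of H2AX were also not called, with 0 of 8 in each list with 6 or with 4 libraries (DESeq2 Wald test) and 0 with an unadjusted p below 0.05 with 6, per the authors' deposited table. Median log2 fold changes were -0.02 for the H3.3 list and 0.06 for the H2AX list. Atrx, the remodeller that places the H3.3 histone at repeats with Daxx, had a base mean of 14405 and a log2 fold change of 0.03 (SE 0.083 and adjusted p 0.959) per the authors' deposited table. Dek and Ubn2, a chromatin protein and a subunit of the HIRA complex, had log2 fold changes of -0.21 and 0.19 (adjusted p 0.478 and 0.542) per the authors' deposited table. Among H2AX partners, Baz1b, Trp53bp1 and Atm, respectively a kinase for a tyrosine of H2AX, a reader of damaged chromatin and a damage kinase, had log2 fold changes of -0.03, 0.14 and 0.10 (adjusted p 0.944, 0.542 and 0.792) per the authors' deposited table.

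General histone chaperones had a median log2 fold change of -0.12, 8 of 9 below 0 and 0 of 9 called with 6 or with 4 libraries (DESeq2 Wald test), with 1 lower with an unadjusted p below 0.05, per the authors' deposited table. Npm1, Nasp and Supt16, which bind free histones or help polymerases pass nucleosomes, had log2 fold changes of -0.16, -0.16 and -0.12 (adjusted p 0.691, 0.528 and 0.750) per the authors' deposited table. Proliferation genes had a median of -0.21, 12 of 12 below 0 and 0 of 12 called with 6 libraries (DESeq2 Wald test), with 6 lower with an unadjusted p below 0.05, per the authors' deposited table. Over all genes 7.68% had such a p in either direction. With 4 libraries 3 of 12 proliferation genes were called lower, Ccna2, Rrm2 and Top2a, beside 2.3% of all genes in either direction. Mki67, Top2a and Mcm5 had log2 fold changes of -0.13, -0.26 and -0.07 with 6 libraries (adjusted p 0.632, 0.120 and 0.910) per the authors' deposited table. The 7 members beside H2afv thus had a median of -0.15, between those of general chaperones and proliferation genes. The part of dividing cells in the members' values was not tested.

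**Figure D4:**
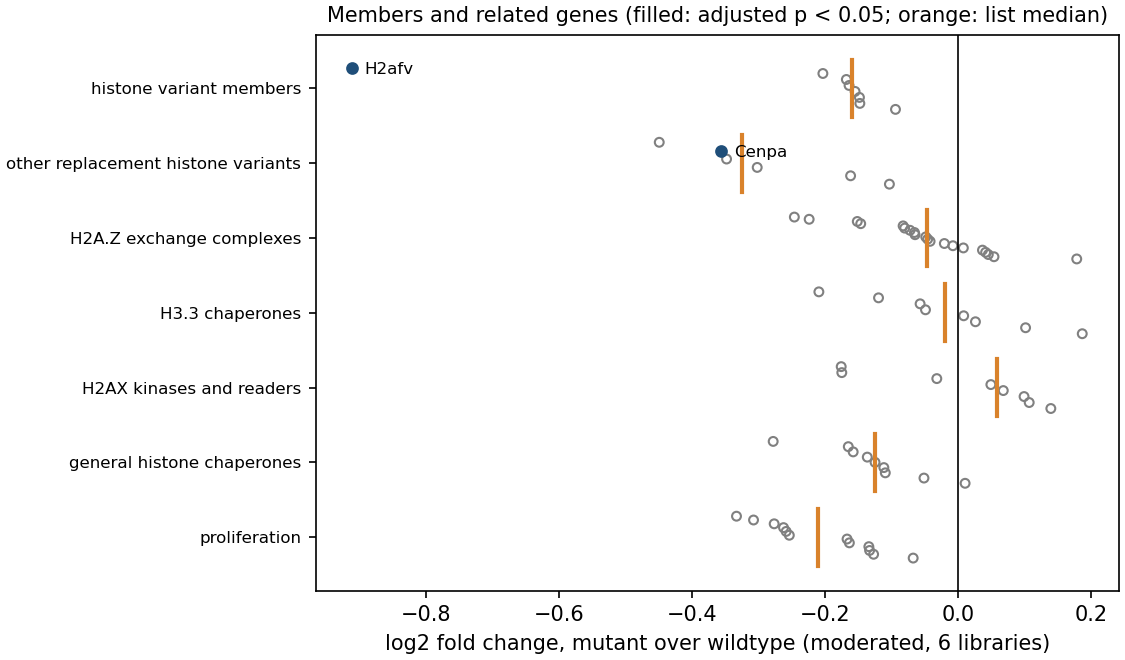
Moderated log2 fold changes (x axis, mutant over Wildtype, 6 libraries) of measured genes in the members' list and 6 related lists (y axis), 1 point a gene. Filled points were called, which were H2afv at -0.91 and Cenpa at -0.36. Orange bars are list medians, from -0.32 for the list of other histone genes (labelled other replacement histone variants) to 0.06 for H2AX partners.

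Marker lists of other cells were read from the same comparison. Of all tested genes 1.75% were called higher and 1.16% lower with 6 libraries, and 7.68% had an unadjusted p below 0.05. With 4 libraries 2.3% were called in either direction. Muscle markers had a median log2 fold change of 0.49, with 6 of 9 called higher, and neuron markers of -0.37, with 4 of 8 called lower, per the authors' deposited table. With 4 libraries 2 of 9 muscle markers were called higher (median 0.33) and 1 of 7 measured neuron markers lower (median -0.18), so most of these calls ended when 1 library of each genotype was left out. Macrophage markers had a median of 0.22, with 3 of 10 called higher, and epithelial, endothelial and erythroid markers of 0.02, 0.03 and -0.01, with 0 of 8, 0 of 6 and 0 of 6 called (DESeq2 Wald test; 0, 0 and 2 with an unadjusted p below 0.05), per the authors' deposited table. Of the 8 mesenchyme markers 3 were called lower, Shox2 (-0.90), Twist1 (-0.45) and Prrx1 (-0.31), and 1 higher, Pax9 (0.46), with a median of -0.26. Pdgfra (0.20) and Osr2 (0.08) also lay above 0 and were not called. With 4 libraries the same 3 were called lower, and 2 were called higher, Pax9 (0.35) and Pdgfra (0.23). The part of these cells in the values of the members was not tested.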

How the data were processed

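RNA-seq libraries of 3 Wildtype and 3 Wnt1Cre;Meis2f/f samples were made with TruSeq RNA v2 after amplification of RNA, per the labels' protocols. The submitters' processing notes name HISAT2, featureCounts, DESeq2, GRCm38 and mm10, with versions and settings not given in the sources used here. The authors deposited 3 tables of their own comparison. The base mean is a signal, counts divided by size factors and averaged, as deposited by the authors. Fold changes and their SE are log2 values deposited by the authors. The Wald statistic is a score deposited by the authors, and the p-value and adjusted p-value are those of their DESeq2 Wald test, as deposited. The third table repeats 1613 rows of the first (1613 of 1613 rows equal) and was not used.

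The series' text calls the tables comparisons of single library pairs. Single-read genes in the first take 6 levels of base mean, 3 for each genotype, and 4 of these are in the second, so the second holds 4 of the same 6 libraries. The test planned was the deposited one. Left-out means were computed as (6 times the first base mean minus 4 times the second, rescaled) over 2. The size-factor ratio used for rescaling was 1.03 to 1.04 among the 4 kept libraries, and the procedure was tested on simulated data. Intervals are fold change ± 1.96 SE (95%). Python 3.11.15, pandas 2.3.3, numpy 2.4.6, scipy 1.17.1 and matplotlib 3.10.9 were used. Annotation was GENCODE M21, in which 96.0% of measured genes had a unique entry. Of the 8 members 8 matched RefSeq and 7 its promoter table.

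The members and lists were chosen with earlier results of these data known. Named genes are the members, Meis2, Wnt1, E2f1, called genes of related lists, the 3 highest base means of each related list with fewer than 4 called genes, the nearest genes to H2afv and called neighbours of members. No gene is named for a like pattern, as that needs values per library. The alternatives tried were the 4-library comparison, a threshold of 0.01, adjustment over every gene with a p, a base mean minimum of 100 or none, centring on genes above that minimum, and 20 neighbours a side.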

Additional observations from a re-analysis of the deposited data

How the results depend on the processing

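H2afv was called under the 4 alternatives tried for it, but its call chose the set, so this supports nothing. Each of the 7 other members stayed uncalled and below 0 under all 4. The threshold of 0.01 and the adjustment over every gene reuse the same fold changes, so there the sign could not change. A stricter threshold also could not add a call. No paired analysis was possible because the tables hold no values per library. For the same reason single libraries could not be left out in turn, and the 4-library comparison leaves out 1 library of each genotype together. Of the counts and medians that answer a comparison, 167 alternative values stayed within 1.5 times or within an SE of the first value and 14 moved. Those that stayed include counts of 0 that could not rise under a stricter threshold or a higher base mean minimum. In the 4-library comparison the proliferation list had 3 genes called lower rather than 0, the mesenchyme list 2 called higher rather than 1, the muscle list 2 called higher rather than 6 with a median of 0.33, and the neuron list 1 called lower rather than 4 with a median of -0.18. There 1 neighbour of H2afv was called lower rather than 0, and 1 neighbour of all members was called higher rather than 2. With a base mean of at least 100 the neuron list had 2 called lower and a median of -0.67, and the medians of the macrophage and erythroid lists were 0.53 and 0.27, as fewer genes were left. With 20 neighbours a side and 6 libraries, 1 neighbour of H2afv was called higher rather than 0, and 4 of all members' neighbours rather than 2. The cause of the shifts with 4 libraries was not tested. Fold changes of weakly expressed genes such as H2afj are understated by the moderation.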
